A study of Mus musculus with 14 samples.

Results

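The genes described here are 9 regulators of mRNA decay that act on inflammatory transcripts, measured by RNA-seq in mouse liver during hepatitis induced by concanavalin A (ConA), a lectin that activates T cells. They were selected by gene symbol, with earlier results of these data known, and they are Zfp36, Zfp36l1, Zfp36l2, Zc3h12a, Zc3h12c, Rc3h1, Btg1, Tob1 and Elavl1, or 9 of the 17656 genes listed for each liver. The study asked how the loss of YTHDF1, a protein that reads the m6A mark on mRNA, alters this hepatitis. All mice were on the C57BL/6 background and 8 weeks old, and each received 1 injection into the tail vein, with the liver taken 8 h later. The 4 groups were wild-type (WT) mice given saline (n = 3), Ythdf1 knockout (KO) mice given saline (n = 3), WT mice given ConA at 8 mg/kg (n = 4) and KO mice given ConA at 8 mg/kg (n = 4). The knockout was made by CRISPR/Cas9 and is present in all cells of the body, so hepatocytes and immune cells of a KO liver both carry it.

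These proteins decide how long an inflammatory mRNA survives. Zfp36 (tristetraprolin), Zfp36l1 and Zfp36l2 are zinc finger proteins that bind AU-rich elements in the 3′UTR of cytokine mRNAs and bring in the CCR4-NOT deadenylase, which removes the poly(A) tail. Zc3h12a (Regnase-1) and its relative Zc3h12c are endonucleases that cut stem-loops, and Rc3h1 (Roquin-1) binds such stem-loops to the same end. Btg1 and Tob1 are antiproliferative adaptors that link RNA-binding proteins to the CCR4-NOT deadenylases, while Elavl1 (HuR) binds AU-rich elements and protects the transcript. Several of these genes are themselves induced by inflammatory signals and carry AU-rich elements in their own mRNA.

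The unit is TPM, a share of all transcripts that is scaled for transcript length, so that levels of different genes can be set side by side. A library could not be given a counting error, because TPM keep no read depth. Between 2230 and 2701 of the genes were listed at 0 in each library. With saline, Ythdf1 itself had 12.03 to 13.9 TPM in WT livers and 18.4 to 20.8 TPM in KO livers. With ConA it had 18.7 to 25.6 TPM in WT livers and 15.5 to 26.2 TPM in KO livers. The KO livers thus did not hold less Ythdf1 mRNA, and since a gene's TPM covers all its exons the value does not check the edit, so KO below means a mouse labelled as a knockout. Hepatocyte markers, among them Alb and Ttr, summed to 78425 TPM or more in every liver. Neutrophil markers (9 genes) summed to 5.56 to 11.5 TPM after saline, and after ConA to 322 to 566 TPM in WT, and in KO livers 419 to 963 TPM. Markers of T and NK cells (10 of 11 genes listed) summed to 2.69 to 4.80 TPM after saline, and after ConA to 5.20 to 13.3 TPM in WT, and in KO livers 9.80 to 18.9 TPM. Kupffer cell markers (8 genes) summed to 50.7 to 189 TPM after saline and 14.95 to 75.8 TPM after ConA. Over all livers the sums were 17.2 to 70.5 TPM for monocytes and macrophages (8 genes), 14.4 to 52.6 TPM for sinusoidal endothelial cells (8 genes, given by genotype beside the saline results) and 0.44 to 4.24 TPM for B cells (5 of 6 genes listed). No marker of these lists was at 0 in all libraries of a group. In whole liver, a change in the number of cells of a type and a change in RNA per cell cannot be told apart, and the part of cell composition in the results below was not tested.

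Some libraries stood apart from the rest. WT saline replicates 2 and 3 had a median absolute log2 ratio of 0.06 over genes of 10 TPM or more, while the other 17 replicate pairs had 0.11 to 0.38. Without read counts it cannot be said whether this is less than sampling noise, so both were counted, and results that rest on them are also given with the pair averaged into 1 mouse. In WT ConA replicate 3 and KO ConA replicate 3, genes with long transcripts stood lower relative to genes with short ones, by 0.52 and 0.45 on the log2 scale, while the same measure ran from -0.08 to 0.21 in the other libraries. WT ConA replicate 3 was the lowest library of its group for 8 of the 9 genes, all but Zc3h12a. KO ConA replicate 3 was the lowest for 6 of the 9.

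**Figure D1:**
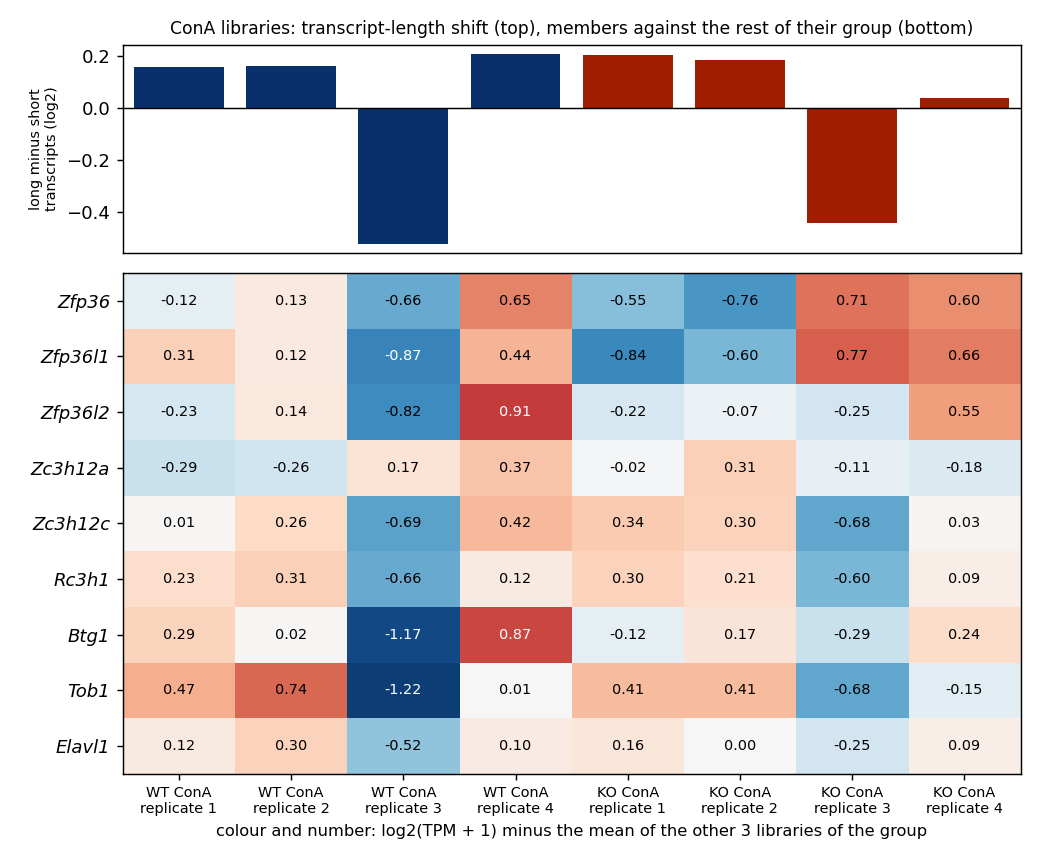
The upper panel plots, for each of the 8 ConA libraries, the log2 difference of long-transcript genes minus short-transcript genes, and the lower panel gives each gene's log2(TPM + 1) minus the mean of the other 3 libraries of its group (red higher, blue lower). Replicate 3 of WT ConA was low for every gene but Zc3h12a, and replicates 3 and 4 of KO ConA were high for Zfp36 and Zfp36l1.

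The 3′UTRs are shown for the AU-rich element, which the Zfp36 family and Elavl1 bind. The heptamer TATTTAT (as DNA, on the transcript strand), the core of the AU-rich element, occurs 3 times in Zfp36, 3 times in Zfp36l1, 3 times in Zfp36l2, 2 times in Zc3h12c, 2 times in Rc3h1 and 8 times in Elavl1, overlapping copies included, in the longest coding transcript of the GENCODE vM21 annotation. It is not found in Zc3h12a, Btg1 or Tob1. Of 16524 genes, 28.3% have at least 1 copy. Among genes with a 3′UTR about as long as that of Zfp36 (774 bases), 20.8% have a copy and 1.1% have as many as Zfp36, and for Elavl1 (4218 bases) the shares are 59.4% and 0.2%. They are 38.0% and 3.7% for Zfp36l1 and 37.7% and 3.7% for Zfp36l2. The copies of Zc3h12c (58.9% and 27.9%) and Rc3h1 (75.4% and 44.1%) are common for 3′UTRs of their length. For each gene with a copy, the 30 bases of the 3′UTR richest in the heptamer are given in GRCm38, with the heptamer in capitals, because they let the reader compare how densely the copies are packed.
Zfp36, chr7:28376962-28376991, minus strand: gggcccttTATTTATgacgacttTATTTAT
Zfp36l1, chr12:80108428-80108457, minus strand: atttaacttatcaaaacgTATTTATtgcca
Zfp36l2, chr17:84184914-84184943, minus strand: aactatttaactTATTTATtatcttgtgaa
Zc3h12c, chr9:52114862-52114891, minus strand: tgctataatcatTATTTATaggaacaaaga
Rc3h1, chr1:160970037-160970066, plus strand: atttatactttactcatTATTTATtgagat
Elavl1, chr8:4285776-4285805, minus strand: TATTTATTTATTTATTTATtttTATTTATt
Zfp36 and Elavl1 pack several copies into 1 such stretch, where each of the others has a single copy.

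Promoters are shown for 3 genes, Zfp36 and Zfp36l1 because both responses differed between the genotypes below, and Zc3h12a because it rose in both genotypes. The 250 bases before the start site are from RefSeq (GRCm38.p6), which held 9 promoters for 8 of the genes and none for Zfp36l2. Capitals mark matches on either strand to TTCNNNGAA, the GAS element bound by STAT proteins, and to GCGNGGGCG, the EGR element. They also mark TGANTCA, a loose form of the AP-1 element that allows any base in the middle. The NF-kB element was searched too. So were the cyclic AMP element TGACGTCA, which holds the shorter form, and that shorter form TGACGT alone. The E-box was searched as CACGTG. The TATA box was searched on the transcript strand only, as the letters TATAAA.
Zfp36 promoter, chr7:28379229-28379478, minus strand: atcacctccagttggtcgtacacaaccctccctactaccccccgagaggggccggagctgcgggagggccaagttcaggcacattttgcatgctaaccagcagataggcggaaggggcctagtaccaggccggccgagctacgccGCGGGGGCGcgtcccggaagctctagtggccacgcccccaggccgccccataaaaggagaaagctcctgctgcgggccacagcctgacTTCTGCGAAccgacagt
Zfp36l1 promoter, chr12:80113014-80113263, minus strand: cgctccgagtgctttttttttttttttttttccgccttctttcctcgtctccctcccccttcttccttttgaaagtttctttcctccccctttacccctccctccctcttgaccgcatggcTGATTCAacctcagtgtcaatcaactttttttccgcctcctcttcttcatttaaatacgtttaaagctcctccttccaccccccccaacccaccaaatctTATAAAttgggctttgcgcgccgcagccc
Zc3h12a promoter, chr4:125127882-125128131, minus strand: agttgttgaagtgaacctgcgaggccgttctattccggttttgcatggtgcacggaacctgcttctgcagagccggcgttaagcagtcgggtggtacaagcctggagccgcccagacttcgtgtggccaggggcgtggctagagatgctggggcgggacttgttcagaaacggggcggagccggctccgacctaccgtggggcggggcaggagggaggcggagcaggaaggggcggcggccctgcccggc
Zfp36 has an EGR match that starts at -105 and a GAS match at -17 from the start site, which 5.6% and 8.3% of 32851 mouse promoters of 300 bases also have. Zfp36l1 has TGATTCA, a match to the loose AP-1 form, at -129, and 7.8% of promoters match that form. It also has a TATA match at -29, found in 8.3%. Zc3h12a has none of the motif forms searched in this window. Of the others, Rc3h1 has TGACTCA, a match to the same AP-1 form, at -133. Btg1 has the shorter cyclic AMP element at -188 (7.5% of promoters) and a TATA match at -26, and Tob1 a TATA match at -47. No promoter of the 8 genes matched the NF-kB form searched (5.6% of all promoters), the full cyclic AMP element (1.8%) or the E-box (7.2%). These are matches of letters only and show no binding.

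In the untreated liver the 9 genes differed widely in level. In WT saline livers Tob1 was the highest, at 112 ± 19.1 TPM (SD, n = 3), followed by Zfp36l1 at 91.9 ± 2.51 and Zfp36 at 82.4 ± 10.8. Btg1 (23.3 ± 3.13) and Zfp36l2 (21.5 ± 2.77) came next, then Elavl1 at 7.98 ± 0.39. Rc3h1 (2.02 ± 0.19), Zc3h12a (1.85 ± 0.11) and Zc3h12c (1.66 ± 0.16) were lowest. Neighbours in this order had overlapping ranges, except that Zfp36 stood above Btg1, Zfp36l2 above Elavl1 and Elavl1 above Rc3h1. In KO ConA livers the order was another one, with Zfp36 (191 ± 72.9 TPM, SD, n = 4) and Zfp36l1 (140.3 ± 58.5) on top, Btg1 (49.5 ± 6.36), Tob1 (32.7 ± 8.61), Zfp36l2 (32.0 ± 6.90), Zc3h12a (18.0 ± 2.23) and Elavl1 (11.7 ± 1.13) between, and Rc3h1 (2.93 ± 0.76) and Zc3h12c (1.96 ± 0.65) still lowest.

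**Figure D2:**
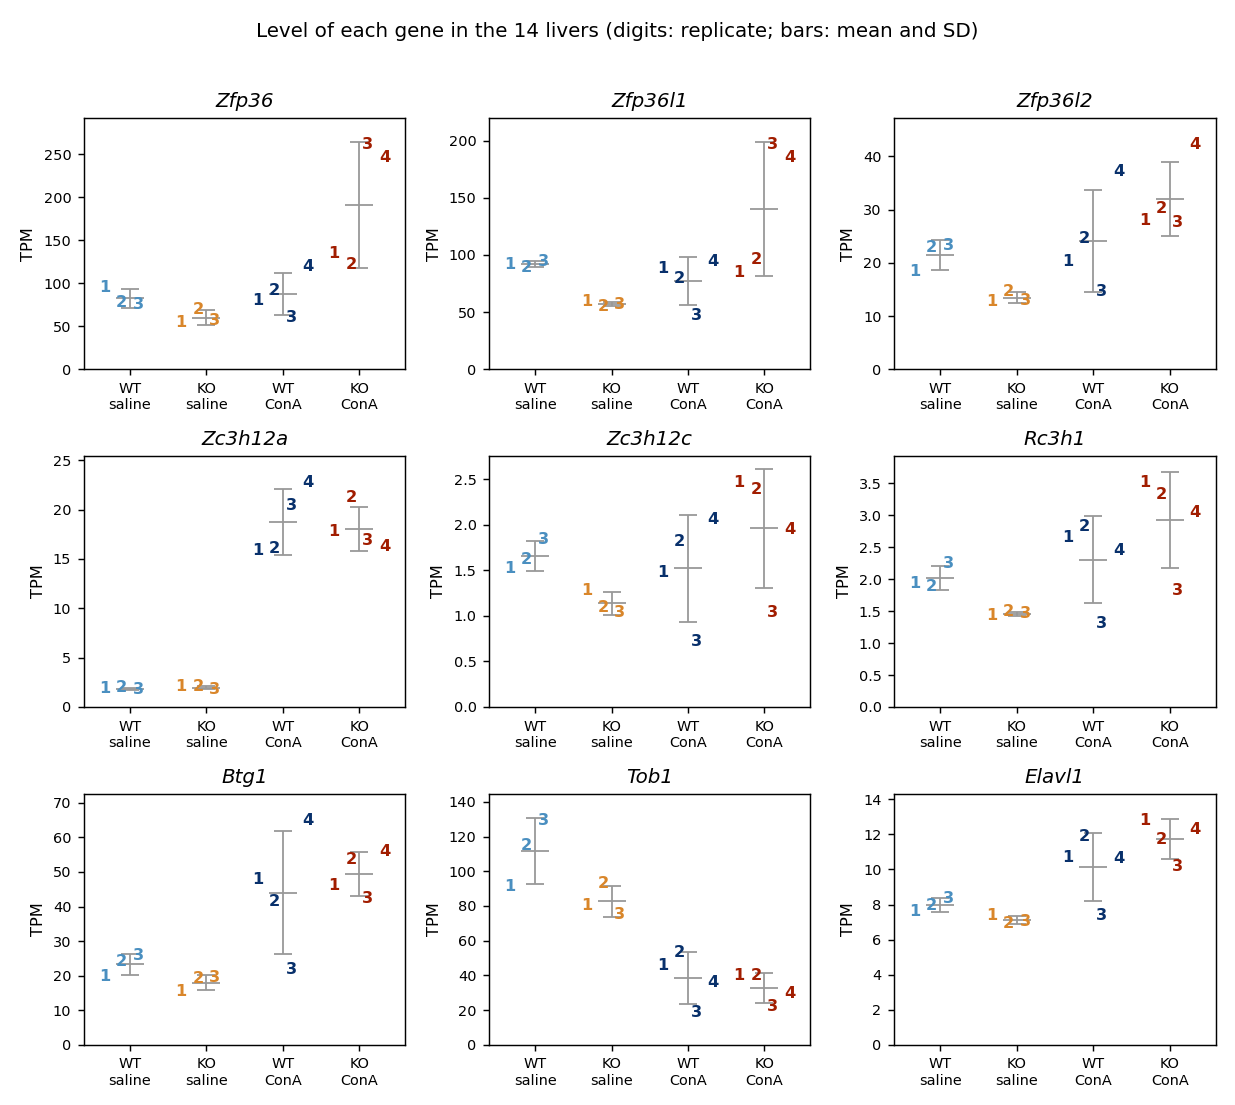
Each panel shows the TPM of 1 gene (y axis, from 0) in the 4 groups (x axis), where each digit is a mouse by its replicate number and grey bars give the mean and SD. Zc3h12a rose from about 2 to between 15.8 and 22.7 TPM in all 8 ConA livers, Tob1 fell in both genotypes, and Zfp36 was between 121 and 261 TPM in the KO ConA livers, above every other group.

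With ConA, Zc3h12a rose and Tob1 fell in both genotypes, and the other calls against saline were all in KO livers, which does not by itself show that the genotypes differed. In WT livers, 1 of the 9 was called higher (Zc3h12a) and 1 lower (Tob1), at an adjusted p below 0.05 by limma, where 22.0% of the 10768 genes tested were called higher and 31.0% lower. In KO livers, 7 of the 9 were called higher and 1 lower (Tob1), where 33.9% of 10988 genes were called higher and 30.7% lower. The median log2 fold change of the 9 genes was 0.09 in WT livers, against -0.07 over all genes tested, and 1.17 in KO livers, against 0.07. Between the genotypes after saline, 2 of the 9 were called lower in KO and none higher, where 12.9% of 10459 genes were called lower and 6.30% higher. Between the genotypes after ConA, 0 of the 9 were called, with 2 at an unadjusted p below 0.05, where 0.428% of 10519 genes were called. The difference between the 2 responses (KO response minus WT response, the interaction) was called for 2 of the 9, Zfp36 and Zfp36l1, both higher in KO, where 4.78% of 11327 genes were called. All differences below are log2 fold changes on the log2(TPM + 1) scale, with the adjusted p of limma over all genes tested, and this scale understates changes of genes near 1 TPM. The comparisons share groups, so the values are given side by side and not as independent evidence.

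**Figure D3:**
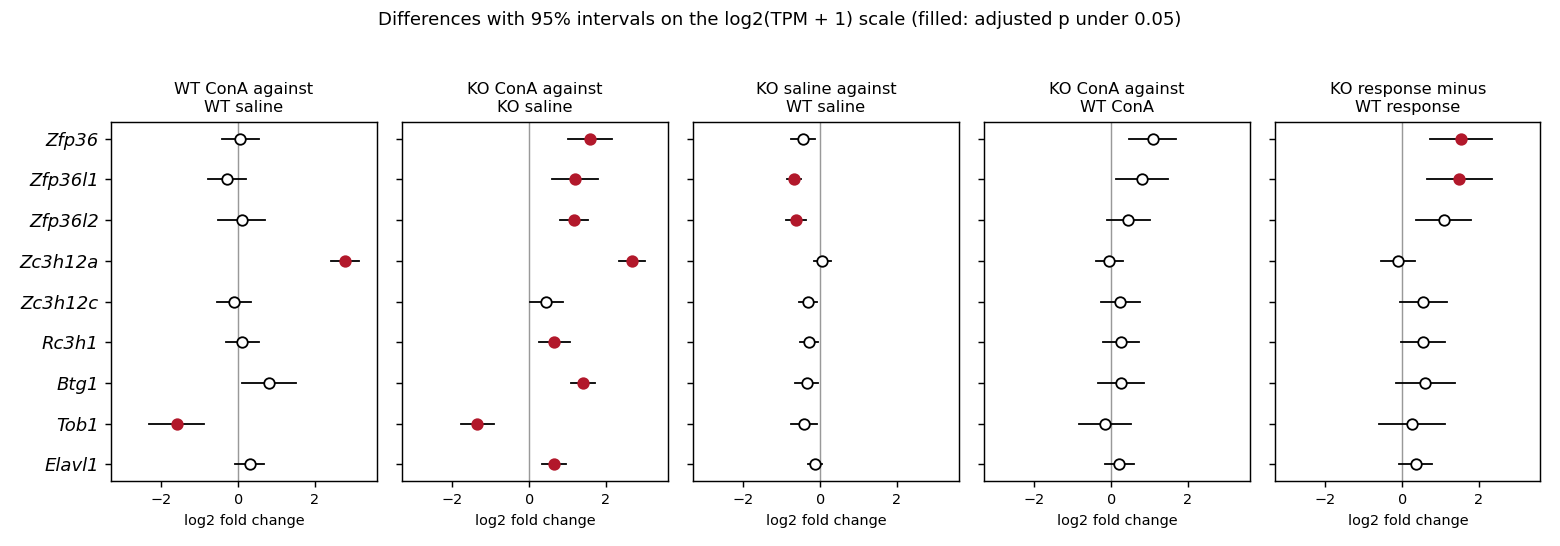
For each gene (rows) the 5 panels give the log2 fold change on the log2(TPM + 1) scale (x axis) with its 95% interval, filled where the adjusted p was under 0.05. Zc3h12a (2.78 and 2.68) and Tob1 (-1.61 and -1.35) were filled with the same sign in both genotypes, whereas Zfp36 and Zfp36l1 were filled in the last panel, at 1.53 and 1.49.

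Zfp36 encodes tristetraprolin, the best known of the proteins that bring deadenylases to Tnf mRNA. Its TPM were 94.7, 77.2 and 75.2 in the WT saline livers and 53.8, 69.9 and 56.6 in the KO saline livers. After ConA they were 79.8, 91.0, 59.9 and 119 in WT livers and 135, 121, 261 and 247 in KO livers. All 4 KO ConA values lay above all 4 WT ConA values, the closest being 121 against 119, and replicates 3 and 4 were the highest. Zfp36 was 1.58 higher (SE 0.26, adjusted p = 3.05e-04) with ConA than with saline in KO livers, and its WT response was 0.05 (SE 0.22, adjusted p = 0.860). The difference between the responses was 1.53 (SE 0.38, adjusted p = 0.0382). Within the ConA groups alone, KO minus WT was 1.08, with a 95% interval from 0.46 to 1.69 and an adjusted p of 0.0984. The adjusted p was 0.0211 when all 14 libraries shared 1 estimate of the spread, as they do in the interaction. That estimate includes the saline groups, where Zfp36 varied less (SD 10.8 TPM in WT and 8.61 in KO, against 24.8 and 72.9 with ConA). In that fit many more of all genes were called, as given below. After saline the KO livers lay below all WT livers, by 0.45 (adjusted p = 0.0540).

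Zfp36l1, a close paralog that also limits bile acid and cytokine transcripts in liver, had a similar course. With saline its TPM were 92.0, 89.3 and 94.3 in WT and 58.9, 55.1 and 56.5 in KO livers. With ConA they were 87.7, 79.5, 47.0 and 93.9 in WT and 84.4, 95.7, 196 and 185 in KO livers. The 2 saline groups were far apart and tight, and the same KO ConA replicates, 3 and 4, were the high ones, but here replicate 1 of KO ConA lay within the WT ConA range. In KO livers ConA raised Zfp36l1 by 1.19 (adjusted p = 0.0028), while the WT difference was -0.30 (adjusted p = 0.285). The responses differed by 1.49 (SE 0.39, adjusted p = 0.0457). KO saline livers were 0.68 lower than WT saline livers (SE 0.08, adjusted p = 0.0064), and with ConA the KO livers were 0.80 higher with an adjusted p of 0.217. Cell markers moved in the same saline comparison. Sinusoidal endothelial markers summed to 18.0 to 28.5 TPM in WT livers, below the 31.0 to 52.6 TPM of the KO livers, and 5 of 7 tested were called higher, with a median of 0.69. Kupffer cell markers summed to 110 to 189 TPM in WT livers and 50.7 to 117 TPM in KO livers, with 0 of 8 called by limma, 2 (Cd5l and Timd4) at an unadjusted p below 0.05, and a median of -0.59. The part of these cells in the lower saline values of Zfp36l1 and Zfp36l2 was not tested. Only 43.1% of the 50-base stretches of the Zfp36l1 transcript, the read length, occur in no other gene, because the long non-coding RNA gene Gm26669 overlaps it on the opposite strand. Whether strand was used in counting is not given in the sources used here, so reads of the 2 cannot be told apart, whereas the other 8 transcripts had 97.3% or more of such stretches to themselves.

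Zfp36l2, the third paralog, known for its part in lymphocyte development, stood lower in KO saline (12.8, 14.6 and 12.99 TPM) than in WT saline livers (18.3, 22.9 and 23.3 TPM). With ConA it was 20.2, 24.6, 14.6 and 37.2 TPM in WT and 27.9, 30.3, 27.5 and 42.2 TPM in KO livers, so the ConA groups overlapped while the saline groups did not. The KO saline difference was -0.63 (SE 0.11, adjusted p = 0.0192), the KO response 1.17 (adjusted p = 8.99e-05) and the WT response 0.09 (adjusted p = 0.798). The difference between the responses was 1.08 and did not pass (adjusted p = 0.0710).

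The ConA calls of the 3 paralogs within KO livers held in all 16 alternatives, but their saline calls and interactions did not hold in several. Once WT saline replicates 2 and 3 were averaged into 1 mouse, the KO saline difference of Zfp36l1 was -0.69 (adjusted p = 0.0611) and that of Zfp36l2 -0.58 (adjusted p = 0.0913), and the interaction was 1.58 for Zfp36 (adjusted p = 0.104) and 1.49 for Zfp36l1 (adjusted p = 0.118), so none of them was called although the sizes stayed close. The saline call of Zfp36l1 was also lost without WT saline replicate 2 (adjusted p = 0.0544) or 3 (adjusted p = 0.0673), and that of Zfp36l2 without either of these or KO saline replicate 1 (adjusted p = 0.0571 to 0.0981). Leaving out any 1 of the 6 saline libraries ended both interactions, at adjusted p values of 0.0582 to 0.104 for Zfp36 and 0.0657 to 0.120 for Zfp36l1. So did leaving out KO ConA replicate 4 (0.0746 and 0.0860) and rescaling the libraries (0.0762 and 0.0852), with values of 1.32 to 1.39. That of Zfp36l1 also ended without replicate 2 or 3 of WT ConA or of KO ConA, at adjusted p values of 0.0508 to 0.0529. Without both ConA libraries numbered 3, an alternative chosen after seeing the data, the interaction was smaller, at 1.18 for Zfp36 (adjusted p = 0.0377) and 1.08 for Zfp36l1 (adjusted p = 0.0393). In that setting the interaction was also called for more of all genes, as given below. The correction for transcript length, likewise chosen after seeing the data, ended both interactions, as did testing with no filter.

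Among the nucleases and their partners, Zc3h12a, which encodes Regnase-1, rose most, to overlapping levels in the 2 genotypes. With saline it had 1.89, 1.93 and 1.73 TPM in WT and 2.03, 2.09 and 1.75 TPM in KO livers, and with ConA 15.8, 16.1, 20.4 and 22.7 TPM in WT and 17.8, 21.2, 16.9 and 16.2 TPM in KO livers. Every ConA liver was above every saline liver and the 2 ConA groups overlapped throughout. The response was 2.78 in WT (SE 0.16, adjusted p = 2.00e-06) and 2.68 in KO livers (adjusted p = 1.38e-07). KO ConA minus WT ConA was -0.05, with a 95% interval from -0.40 to 0.31 (adjusted p = 0.919), and the responses differed by -0.10 (adjusted p = 0.790).

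Zc3h12c, the related endonuclease, stayed between 0.72 and 2.46 TPM in all 14 livers. WT livers had 1.52, 1.62 and 1.84 TPM with saline and 1.48, 1.82, 0.72 and 2.06 TPM with ConA, and KO livers 1.28, 1.09 and 1.04 TPM with saline and 2.46, 2.39, 1.04 and 1.95 TPM with ConA. Its KO response of 0.44 did not pass (adjusted p = 0.0688), and without KO ConA replicate 3, the lowest of its group, it was 0.61 (adjusted p = 0.0022). Rc3h1, which encodes Roquin-1, had 1.94, 1.88 and 2.24 TPM with saline and 2.65, 2.82, 1.31 and 2.45 TPM with ConA in WT livers. In KO livers it had 1.43, 1.49 and 1.47 TPM with saline and 3.51, 3.32, 1.83 and 3.04 TPM with ConA. All KO ConA livers were above all KO saline livers, by 0.65 (adjusted p = 0.0094), whereas the WT response was 0.11 (adjusted p = 0.667). Without WT ConA replicate 3, which at 1.31 TPM was the only WT ConA liver below the WT saline livers, the WT response was 0.27 (adjusted p = 0.0474). The difference between the responses was 0.55 for Zc3h12c (adjusted p = 0.245) and 0.54 for Rc3h1 (adjusted p = 0.217).

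The adaptors of the CCR4-NOT deadenylases moved in opposite directions. Tob1 fell by 1.61 in WT livers (SE 0.32, adjusted p = 0.0023) and by 1.35 in KO livers (adjusted p = 1.27e-04). WT livers went from 91.4, 115 and 129 TPM with saline to 45.8, 53.1, 18.4 and 35.8 TPM with ConA, and KO livers from 80.5, 92.7 and 75.2 TPM to 39.7, 39.7, 22.1 and 29.4 TPM. No ConA liver reached a saline liver, and replicate 3 was the lowest in both ConA groups. Btg1 had 19.8, 24.2 and 25.8 TPM with saline and 47.8, 41.4, 21.8 and 64.9 TPM with ConA in WT livers, and 15.5, 19.2 and 19.4 TPM with saline and 46.2, 53.8, 42.3 and 55.8 TPM with ConA in KO livers. It rose by 1.41 in KO livers (adjusted p = 8.85e-06), where the groups did not overlap. The WT difference of 0.80 just missed the threshold (adjusted p = 0.0535), and without WT ConA replicate 3, the 1 library within the saline range, it was 1.09 (adjusted p = 0.0012). The responses of the genotypes differed by 0.26 for Tob1 (adjusted p = 0.708) and 0.61 for Btg1 (adjusted p = 0.302).

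Elavl1, the stabilizing member, changed least among the genes called in KO livers. WT livers had 7.60, 7.96 and 8.37 TPM with saline and 10.7, 11.9, 7.38 and 10.6 TPM with ConA, and KO livers 7.40, 6.94 and 7.05 TPM with saline and 12.8, 11.7, 10.2 and 12.3 TPM with ConA. In KO livers it rose by 0.64 (adjusted p = 0.0020). In WT livers 3 of the 4 ConA livers lay above the saline range, the difference was 0.29 (adjusted p = 0.173), and without WT ConA replicate 3 it was 0.43 (adjusted p = 0.0046). With that library left out, 5 of the 9 genes were called in WT livers in place of 2, the added ones being Rc3h1, Btg1 and Elavl1. The share of all genes called without that library is not given here, so the larger count is not a result particular to the 9 genes. The transcript-length difference of that library is given above, and its part in these values was not tested.

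Subunits of the deadenylases, which several of the 9 proteins bring in, had differences between -0.48 and 0.61 with ConA in the 2 genotypes. Counts of this and the following lists are to be read against all genes tested. Of those, 22.0% were called higher and 31.0% lower with ConA in WT livers, and 33.9% and 30.7% in KO livers. These shares belong to the main fit, and those for ConA against saline without a library are not given here. Of 14 subunits of the CCR4-NOT and PAN deadenylases, 1 was higher in WT ConA livers (Cnot3, 0.60, adjusted p = 0.0152) and none lower, with a median of 0.05. In KO livers 6 were higher and 1 lower, with a median of 0.11, the higher ones being Cnot1, Cnot2, Cnot4, Cnot7, Cnot9 and Cnot10 at 0.53 to 0.61 and the lower one Cnot8, a catalytic subunit, at -0.34. Without WT ConA replicate 3 the WT count was 5 higher and 1 lower, and the KO count of 7 was 4 without KO saline replicate 1 or KO ConA replicate 1 and 3 without replicate 2 of either KO group. None of the 14 was called between the genotypes after saline, after ConA or in the interaction.

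The decapping and exonuclease factors, which act after the tail is gone, had 1 of 11 tested genes higher in WT ConA livers (Edc4, 0.68, adjusted p = 0.0033) and 1 lower (Lsm1, -0.42, adjusted p = 0.0347). In KO livers 5 were higher and 2 lower, among them Patl1 at 0.97 (adjusted p = 7.28e-04) and Dcp2, the decapping enzyme, at 0.89 (adjusted p = 5.78e-04). Without WT ConA replicate 3 the WT counts were 5 and 2, the KO count of 7 was 3 without KO saline replicate 1 and 4 without any other KO library but KO ConA replicate 3 (10), and none of the list was called in the 3 comparisons that involve genotype. The RNA exosome, which degrades RNA from the other end, had 6 of 14 genes higher and 2 lower in WT ConA livers and 5 higher and 5 lower in KO ConA livers (6 in all without KO saline replicate 1). Exosc3 was higher in both (0.88, adjusted p = 3.65e-04, and 0.91, adjusted p = 1.23e-04), and Exosc7 was lower in both (-0.77, adjusted p = 7.97e-04, and -1.41, adjusted p = 4.58e-06). After saline, 1 of the 14 was called higher and 1 lower in KO livers, where 6.30% and 12.9% of all genes were. Between the ConA groups none was called, and in the interaction 3 were called lower, as given below.

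Paralogs of the 9 genes held the largest changes of the decay factors. Of 11 listed, 9 were in the tables, and of the 4 tested in WT livers Btg2 and Btg3, antiproliferative relatives of Btg1, were higher, by 4.48 (adjusted p = 3.71e-07) and 3.78 (adjusted p = 1.52e-05). With ConA, Btg2 had 86.9 to 154 TPM in WT, and in KO livers 137 to 394 TPM, where no saline liver passed 4.61 TPM, and Btg3 had 19.2 to 47.3 and 47.1 to 62.3 TPM, where no saline liver passed 2.14 TPM. KO ConA minus WT ConA was 1.07 for Btg2 (adjusted p = 0.137) and 0.80 for Btg3 (adjusted p = 0.191). Tob2, the paralog of Tob1, did not share the fall of Tob1, with -0.01 in WT (adjusted p = 0.981) and 0.23 in KO livers (adjusted p = 0.288), although the difference between the 2 genes was not tested. Rc3h2, paralog of Rc3h1, was 0.87 higher in KO ConA livers (adjusted p = 0.0033) and 0.27 in WT livers (adjusted p = 0.385).

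Other proteins that bind AU-rich elements were called higher for 3 of 10 genes in WT livers and 6 of 10 in KO livers, with none lower. Their medians were 0.20 and 0.63, and the shares called higher over all genes tested were 22.0% and 33.9%. Arid5a, which protects Il6 mRNA against Regnase-1, rose by 3.24 in WT (adjusted p = 2.69e-07) and 4.18 in KO livers (adjusted p = 2.30e-07). Its TPM, at most 0.74 after saline, were 14.5 to 15.6 in WT livers with ConA and 15.5 to 33.4 in KO livers. It passed the filter only through the ConA livers, so it could hardly have been called lower. Khsrp, a decay-promoting binder, was 0.78 higher in WT livers (adjusted p = 3.75e-04) and 0.34 in KO livers (adjusted p = 0.104).

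Most tested mRNAs among the known targets of the 9 proteins were higher with ConA in both genotypes. Of 24 listed, 16 were tested in WT livers, with 13 higher and 2 lower. In KO livers 17 were tested, with 15 higher and 2 lower, and the medians were 1.64 in WT and 2.20 in KO livers. Only 9 of the 24 passed the filter between the saline groups. Ccl2, Ifng and Tnf did not pass 0.69, 0.14 and 0.05 TPM in any saline liver, so they were tested only through the ConA livers. Such genes could hardly be called lower, so the counts and medians do not show that targets rose as a set. Cyp7a1, the rate-limiting enzyme of bile acid synthesis, was among the lower ones (-5.95 in WT, adjusted p = 3.16e-08, and -4.37 in KO livers, adjusted p = 9.22e-09). Among the higher ones, the chemokine Ccl2 rose by 6.49 and 6.80, Cxcl1 by 5.25 and 6.20, Ier3 by 5.52 and 6.15, Nfkbiz by 2.87 and 3.73 and Tnf by 2.44 and 2.20 in WT and KO livers, all at adjusted p values of 6.35e-05 or less. The cytokines Il6, Il2, Csf2, Il10 and Il12b stayed at or below 0.59 TPM in every liver and were not tested.

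Between the genotypes after ConA none of 16 targets was called. Ifng, the cytokine of activated T and NK cells, had 1.01 to 3.86 TPM in WT, and in KO livers 5.02 to 12.1 TPM, which did not overlap, at a difference of 1.38 (adjusted p = 0.0674), and Myc had 4.87 to 7.04 and 10.04 to 13.3 TPM, at 0.77 (adjusted p = 0.0668). Tnf differed by -0.20 (adjusted p = 0.711), Cxcl1 by -0.01 (adjusted p = 0.982) and Ccl2 by 0.55 (adjusted p = 0.326). Neutrophil and T and NK marker sums also reached higher in the KO livers of this comparison, as given above, and their part in these values was not tested. After saline 3 of 9 tested targets were called lower in KO livers, where 12.9% of all genes tested were. They were Cyp7a1 (-1.65, adjusted p = 0.0014), Nfkbiz (-0.55, adjusted p = 0.0485) and Vegfa (-0.35, adjusted p = 0.0460), and 1 of them was called once the pair of close WT saline libraries was averaged.

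**Figure D4:**
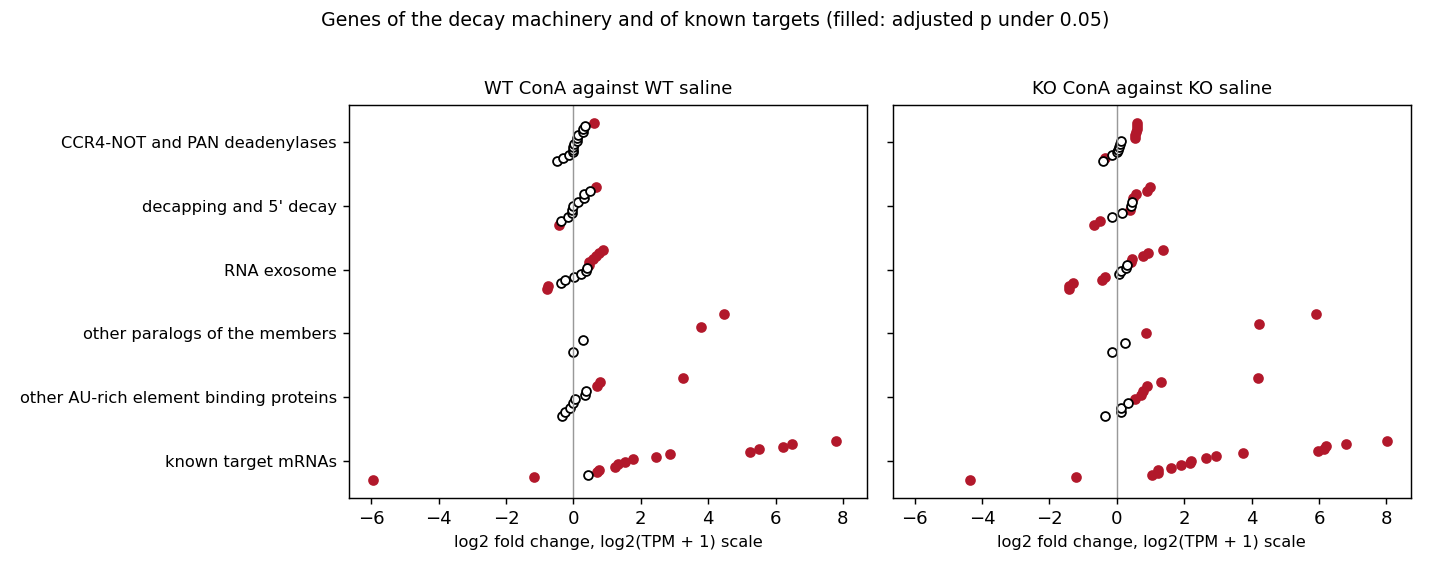
Each point is 1 gene of the 6 lists (rows), placed at its log2 fold change on the log2(TPM + 1) scale (x axis) for ConA against saline in WT (left) and KO livers (right), filled where the adjusted p was under 0.05. Known targets spread from -5.95 to 7.78 in WT livers, while the deadenylase subunits stayed between -0.48 and 0.60.

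The genes whose course over the 14 livers was most like that of each member were found from the root mean square difference of log2(TPM + 1) after each gene was centred on its own mean. For Zfp36 they were Ier2, an immediate early gene (0.27), Rab20 (0.27) and Zfp36l1 (0.28), and with ConA Ier2 had 32.2 to 37.4 TPM in WT, and in KO livers 45.6 to 128 TPM. For Zfp36l1 they were Nt5c3 (0.28), Zfp36 (0.28) and Hmgn1 (0.29), so that these 2 family members were each among the 3 nearest genes of the other. For Zc3h12a they were Il20rb (0.12) and the acute-phase genes Hp (0.18) and Hpx (0.19), the haemoglobin and haem scavengers, respectively, made by hepatocytes. Hp had 3441 to 5236 TPM after saline and 25475 to 32954 after ConA. The nearest genes were Lonrf1, Rbm17 and Arnt for Zfp36l2, Net1, Stag1 and Nek7 for Btg1, and Ugdh, Dsc2 and Dlg3 for Tob1, at 0.15 to 0.20. For the low or steady genes the distances were smaller, 0.06 to 0.08, with Braf, Mtdh and Etaa1 for Zc3h12c, Rbm27, Ss18 and Pdcd6ip for Rc3h1, and Rab22a, Riok3 and Slc25a12 for Elavl1. The libraries that stood apart enter these distances too.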

How the data were processed

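RNA-seq of 14 livers (single-end reads of 50 bases, BGISEQ-500) was read from 1 table per mouse. The deposited values are TPM, made by the authors. Their processing notes name Bowtie2, RSEM 1.3.1 and the GRCm38.p6 genome, while the study's methods name STAR and HTSeq. The order of steps, the annotation and the use of strand are not given in the sources used here. TPM have the same sum in each library and keep no depth, so no counting interval could be given.

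Groups came from the labels. The study's methods describe the samples of a group as independent biological replicates. P-values thus measure the spread between mice, provided that WT saline replicates 2 and 3 are separate mice. Genes that reached a TPM of 1 in a number of libraries no smaller than the smaller group (3 in the interaction) were tested on log2(TPM + 1), pseudocount 1, with limma 3.58.1 (R 4.3.3; lmFit, eBayes with trend) in the libraries of the 2 groups, or all 14 for the interaction. P-values were adjusted by Benjamini-Hochberg over all tested genes and called below 0.05. All 9 members passed the filter in each comparison. The test was also run on simulated data with 1 spread per gene for all groups. That run cannot show how the test behaves where the spread differs between groups or single libraries stand apart, as here. Tables and plots used Python 3.11.15, pandas 2.3.3, numpy 2.4.6 and matplotlib 3.10.9.

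The members, the 6 gene lists (85 genes) and the 7 marker lists were chosen with earlier results of these data known. Named genes were all members, known targets (1 of which is counted but not reported here by name), up to 4 genes of each other list (the 2 with the smallest p in WT ConA against WT saline and in KO ConA against WT ConA) and the 3 genes most like each member. The genes Cnot1, Cnot2, Cnot4, Cnot7, Cnot8, Cnot9, Cnot10, Patl1, Dcp2, Tob2, Rc3h2, Exosc4, Exosc6 and Tial1 were named after their values were seen, where this rule did not name them. The alternatives tried were no filter, filtering at 5 TPM, adding 0.1 before the log, libraries rescaled by their median ratio, robust eBayes, a replicate block, all 14 libraries in 1 fit, WT saline replicates 2 and 3 averaged, each library left out, and, chosen after seeing the data, both ConA libraries numbered 3 left out and a correction for transcript length in 20 bins.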

Additional observations from a re-analysis of the deposited data

Results flagged for a closer look

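Several genes had a difference between the responses of the 2 genotypes by the interaction test of limma, and the reason was not tested. Among the members these were Zfp36, at 1.53 on the log2 scale (adjusted p = 0.0382), and Zfp36l1, at 1.49 (adjusted p = 0.0457), both with a larger response in the livers labelled KO.

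Of the decay machinery, 3 of 14 exosome subunits had a lower response in KO livers. Over all genes tested, 4.78% had an interaction called. The interactions were -1.07 for Exosc6 (adjusted p = 0.0229), -0.84 for Exosc4 (adjusted p = 0.0429) and -0.64 for Exosc7 (adjusted p = 0.0462). After saline, Exosc4 was itself higher in KO livers, by 0.61 (adjusted p = 0.0234). Exosc6 and Exosc7 were 0.46 and 0.36 higher there, uncalled (adjusted p = 0.0572 and 0.0561). Exosc6 went from 12.2 to 18.2 TPM with saline to 4.83 to 6.50 TPM with ConA in KO livers, and from 9.82 to 11.4 TPM to 8.02 to 9.62 TPM in WT livers. Tial1, which binds AU-rich elements and holds back translation, differed by 0.93 (adjusted p = 0.0342). In KO livers it had 14.6 to 15.9 TPM with saline and 26.6 to 30.9 TPM with ConA, and in WT livers 21.8 to 25.8 TPM and 15.99 to 26.75 TPM. Its saline level was itself lower in KO livers, by -0.60 (adjusted p = 0.0143).

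Of the known targets, Cyp7a1 differed by 1.59 (adjusted p = 0.002) and Myc by 0.94 (adjusted p = 0.0483). With saline, Cyp7a1 had 66.8 to 72.5 TPM in WT, and in KO livers 17.7 to 26.3 TPM, and it had 0.34 TPM or less in every ConA liver. Its interaction therefore restates the saline difference of -1.65, since the ConA side is at the floor. With WT saline replicates 2 and 3 averaged, none of the exosome genes, not Tial1, neither member and 1 of the targets passed.

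In the ConA groups of 4, 18 tests of the members for a library far from the rest by Dixon's ratio, at its 95% critical value, found 0. Chance alone would mark about 1 in 20.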

How the results depend on the processing

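The number of members called depended on single libraries and on the settings, and the cause was not tested unless given. In WT ConA livers the count of 2 became 4 with rescaled libraries, 4 with the transcript-length correction and 5 without both ConA libraries numbered 3, and ranged from 2 to 5 with each library left out. In saline livers the count of 2 became 1 with no filter, 0 with all 14 libraries in the fit and 0 with WT saline replicates 2 and 3 averaged, and ranged from 0 to 4. KO ConA against WT ConA went from 0 to 1 with all 14 libraries. The interaction count of 2 became 1 with a pseudocount of 0.1, 0 with no filter, 0 with rescaled libraries, 0 with the averaged pair, 0 with the length correction and 5 without both libraries numbered 3, and ranged from 0 to 3. The KO ConA against KO saline count of 8 was 7 with the filter at 5 TPM, where fewer members were tested, and otherwise 8 or 9. The shares of all genes called in the alternatives of ConA against saline are not given here. The changed counts of members in those comparisons are therefore not results particular to the 9 genes. Every call that was lost kept its direction. Rescaling, no filter and the length correction moved the median interaction of all genes by -0.11, -0.11 and -0.14.

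Directions that turned were all of uncalled differences near 0. In WT ConA livers, with each library left out in turn, Zfp36 ranged from -0.11 to 0.22, Zfp36l2 from -0.14 to 0.29 and Zc3h12c from -0.21 to 0.0636, while Zfp36 was -0.0009 with the averaged pair and Zc3h12c was 0.0636 without both libraries numbered 3. KO ConA minus WT ConA ranged from -0.47 to 0.0261 for Tob1, -0.0364 to 0.47 for Btg1 and -0.12 to 0.0477 for Zc3h12a (0.0246 without both libraries numbered 3), and the interaction of Tob1 from -0.0461 to 0.45. Elavl1 in saline livers was 0.0041 with the length correction.

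The replicate numbers do not mark litters or pairs in the labels, and same-numbered libraries of the compared groups had correlations from -0.19 to 0.15 (WT), -0.05 to 0.11 (KO), -0.002 to 0.34 (saline) and -0.007 to 0.41 (ConA), so they were not taken as pairs. With a replicate block, which leaves out the unpaired ConA replicate 4 in the comparisons of ConA with saline, the member counts were 2, 8, 3, 0 and 2. Zfp36 (-0.11) and Zfp36l2 (-0.14) turned in WT ConA livers, Zfp36l1 lost its interaction (adjusted p = 0.0506) and Zfp36l2 gained one (adjusted p = 0.0344).

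Over all genes, the saline comparison called 2009 (659 higher, 1350 lower), 1515 with rescaled libraries (744 and 771), 1186 with the length correction, 584 with no filter, 332 with all 14 libraries and 49 with the averaged pair. It called 45 to 2739 with each library left out, the lowest without WT saline replicate 3 or 2 (51), then KO saline replicate 1 (286) or 2 (640). KO ConA against WT ConA called 45 (36 higher, 9 lower), 25 with rescaled libraries (12 and 13), 4 with no filter, 140 with the block, 640 with all 14 libraries and 108 with the length correction, and 5 to 52 with each library left out. The interaction called 541, 328 with no filter, 358 with the block, 28 with the averaged pair, 1591 without both libraries numbered 3, and 22 to 769 with each library left out.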
